A study of Arabidopsis thaliana with 10 samples.

Results

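The MIR167 family of Arabidopsis thaliana comprises 4 microRNA genes, MIR167A (AT3G22886), MIR167B (AT3G63375), MIR167C (AT3G04765) and MIR167D (AT1G31173). They were taken by locus ID, and all 4 were listed among the 177 microRNA genes and 33271 loci for which small RNAs were counted in pollen. RNAs of 18 to 30 nt were added up gene by gene in 10 small RNA libraries, 2 for each of 5 groups, all in the Col-0 ecotype. WT Col-0 pollen carried no construct. Pollen with pLAT52::RTL1-Myc expresses RTL1, an RNase III-like protein that cuts double-stranded RNA, from the LAT52 promoter, which is active in late microspores and then in the vegetative cell. Pollen with pMGH3::RTL1-Myc expresses the same protein from the MGH3 promoter of the male germline. The 2 libraries of a construct are from separate transgenic lines, so the spread within such a group holds differences between lines. WT FTL and nrpd1a-3 FTL grains were sorted from FTL1230/+;nrpd1a-3/+ plants by the red fluorescence of a pLAT52::DsRed reporter linked to the wild-type NRPD1a allele. WT FTL grains were DsRed positive, and nrpd1a-3 FTL grains were DsRed negative and carried the mutant allele of NRPD1a, the largest subunit of RNA polymerase IV. The titles number these libraries and those of WT Col-0 as biological replicates, without saying what separates them.

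A microRNA is cut by DICER-LIKE 1 from a stem-loop transcript and guides ARGONAUTE1 to complementary mRNAs. The best known targets of miR167 are ARF6 and ARF8, a pair of auxin response factors that promote stamen filament growth and anther opening. A further known target, IAR3, encodes a hydrolase that frees auxin from an amino acid conjugate.

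The mature sequences decide how much of the signal can be given to a single gene, and are therefore shown first, as RefSeq annotates them on TAIR10.1, 5′ to 3′ with the seed (bases 2 to 8) in capitals.
miR167a-5p: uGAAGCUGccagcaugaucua
miR167b: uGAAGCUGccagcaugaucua
miR167d: uGAAGCUGccagcaugaucugg
miR167c-5p: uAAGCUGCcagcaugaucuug
The first 3 share the seed GAAGCUG, and miR167c-5p has AAGCUGC, the same stretch moved by 1 base. miR167a-5p (chr3:8108090-8108110, plus strand) and miR167b (chr3:23406177-23406197, plus strand) are identical over 21 nt. miR167d (chr1:11137556-11137577, plus strand) has 22 nt, and its first 20 bases are those of miR167a-5p. miR167c-5p lies on the minus strand at chr3:1306750-1306770. The genes themselves span 138 bp (MIR167A), 109 bp (MIR167B), 160 bp (MIR167C) and 377 bp (MIR167D), and none overlaps another annotated gene.

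Each deposited value divides a read by its number of genomic hits, so identical sequences put the same reads on several members. At 21 nt, 1 of the 118 possible RNAs of MIR167A, the mature miRNA itself, also occurs in MIR167B, and none occurs in MIR167D. At 22 to 24 nt no RNA is shared among the members. At 19 and 20 nt the shortened mature miRNA is common to MIR167A, MIR167B and MIR167D. The values bore marks of this division at some lengths. The difference between MIR167A and MIR167B was a whole number of reads at each length from 18 to 21 nt in 10 of 10 libraries, to within 0.001 read. It was whole at 22 to 24 nt as well, where no RNA is shared, so this alone does not mark shared reads. MIR167B and MIR167D had equal signal at 19 nt in 8 of 10 libraries, at 18 nt in 5 and at 20 nt in 0. MIR167D at 21 nt was a whole number of reads in 10 of 10. MIR167A and MIR167B share their mature miRNA, and MIR167B had 78.3 to 99.3% of the 21-nt signal of MIR167A. They are therefore taken as largely the same reads and do not count as separate measurements. By contrast, no RNA of MIR167D at 21 to 24 nt is shared with another member. Of its 357 possible 21-nt RNAs, 6 also occur elsewhere in the genome.

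A single read was worth between 0.430 and 1.46 RPM, and 4296912 to 10349598 hit-weighted reads were listed per library. The signal is called RPM as in the files, although its sum of 3743341 to 8672909 per library is larger than such a unit allows, and it counts whole small RNAs without division by gene length. Structural RNAs (rRNA, tRNA, snRNA and snoRNA) took 31.2 to 48.0% of the listed signal in unsorted and 54.8 to 76.7% in sorted pollen. The pollen microRNA genes MIR845A and MIR845B summed to between 58474 and 894258 RPM in the 10 libraries. MIR165A, MIR165B, MIR166A and MIR166B, which are also abundant in sporophytic organs, summed to between 5448 and 114889 RPM. None of these 6 genes was at 0 in any library.

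In 9 of the 10 libraries, MIR167A and MIR167B gave most of the family's signal, the exception being nrpd1a-3 FTL replicate 2. MIR167A had 129 and 471 RPM in the WT Col-0 libraries. It had 1159 and 432 RPM with pLAT52::RTL1 and 893 and 391 RPM with pMGH3::RTL1. Among sorted grains, the WT FTL libraries had 314 and 84.4 RPM, and the nrpd1a-3 FTL libraries 387 and 70.8 RPM. The lower library of each RTL1 construct fell below the higher WT Col-0 library, so the groups overlapped. MIR167B followed with 120 and 456 RPM (WT Col-0), 1145 and 413 RPM (pLAT52::RTL1), 847 and 360 RPM (pMGH3::RTL1), 266 and 53.0 RPM (WT FTL), and 310 and 55.4 RPM (nrpd1a-3 FTL). It was below MIR167A at 21 nt in 10 of 10 libraries, at 78.3 to 99.3% of MIR167A. This gap is the number of 21-nt reads that belong to MIR167A alone, less those that belong to MIR167B alone. Ordered by the mean of MIR167A, pLAT52::RTL1 was followed by pMGH3::RTL1, WT Col-0, nrpd1a-3 FTL and WT FTL pollen, and each neighbouring pair in this order overlapped.

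**Figure D1:**
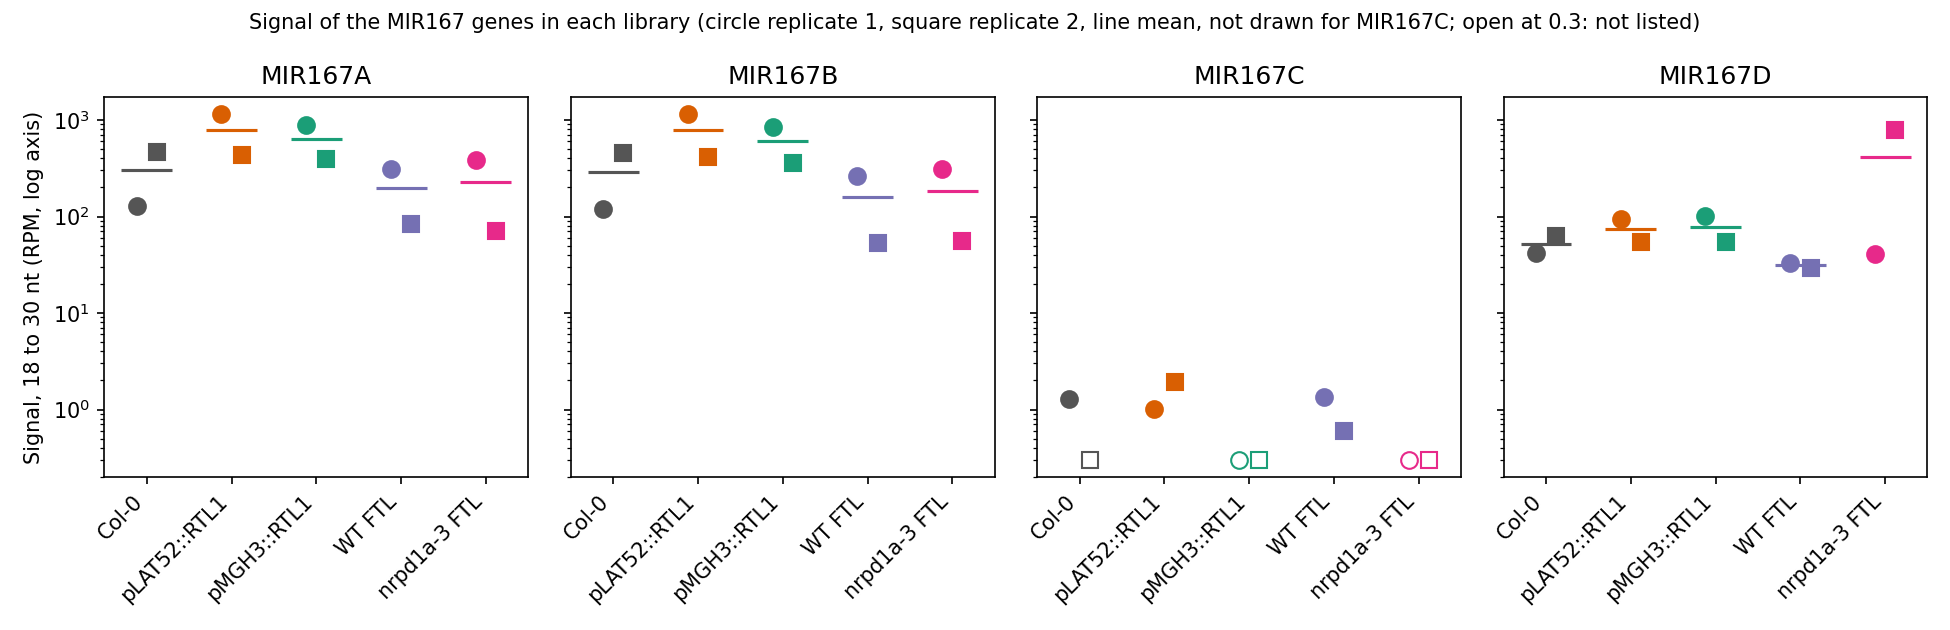
Signal of the 4 MIR167 genes by group, with RPM on a log axis, circles for replicate 1, squares for replicate 2 and lines for the group mean (not drawn for MIR167C); open symbols at 0.3 stand for libraries in which MIR167C was not listed. MIR167A and MIR167B show the same pattern with replicates far apart, and MIR167D lies between 29.5 and 102 RPM except at 781 RPM in nrpd1a-3 FTL replicate 2.

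The libraries of a group differed widely at these genes. On the log2 scale the WT Col-0 libraries were 1.85 apart at MIR167A, where 135 microRNA genes had a median distance of 0.48 and 8 of them were farther apart. With pLAT52::RTL1 the distance was 1.42 (2 of 148 microRNA genes farther apart, median 0.32), and with pMGH3::RTL1 it was 1.19 (11 of 137, median 0.25). The sorted libraries were 1.88 (WT FTL) and 2.43 (nrpd1a-3 FTL) apart, where microRNA genes in general had medians of 1.46 and 1.35. MIR167A was thus among the less reproducible microRNA genes in unsorted pollen.

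MIR167D had 41.4 and 62.1 RPM in WT Col-0, 93.4 and 54.0 RPM with pLAT52::RTL1, and 102 and 54.5 RPM with pMGH3::RTL1. Its sorted libraries had 33.1 and 29.5 RPM (WT FTL), and 40.6 and 781 RPM (nrpd1a-3 FTL). The groups overlapped in unsorted pollen, and 9 of the 10 libraries lay between 29.5 and 102 RPM. Restricted to 21 to 24 nt, where no RNA is shared with another member, MIR167D had 25.4 and 26.0 RPM (WT Col-0), 20.2 and 23.8 RPM (pLAT52::RTL1), 46.7 and 13.1 RPM (pMGH3::RTL1), 17.3 and 15.7 RPM (WT FTL), and 27.2 and 774 RPM (nrpd1a-3 FTL). On this measure the unsorted libraries lay between 13.1 and 46.7 RPM, and neither construct was above WT Col-0 in both of its libraries.

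MIR167C was barely present. It had 1.29 RPM (3 reads) in WT Col-0 replicate 1, 1.01 and 1.91 RPM (2 reads each) with pLAT52::RTL1, and 1.33 and 0.603 RPM among WT FTL grains, and it was not listed in the other 5 libraries. A count of 0 allows up to 3 reads, which is 2.01 to 4.38 RPM in those 5 libraries. No difference at MIR167C was detectable at this depth, and it did not reach the mean of 12 reads needed for a test.

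Together the 4 genes had 292 and 989 RPM (WT Col-0), 2398 and 901 RPM (pLAT52::RTL1), 1842 and 805 RPM (pMGH3::RTL1), 614 and 168 RPM (WT FTL), and 738 and 908 RPM (nrpd1a-3 FTL). This is 0.0314 to 0.332% of the signal of all microRNA genes. Among the 151 to 173 microRNA genes listed in a library, MIR167A ranked from 48 to 79 by signal. MIR167D ranked from 86 to 110 in 9 libraries and 33 in nrpd1a-3 FTL replicate 2. In a bulk library, fewer cells that make a small RNA and less of that RNA per cell cannot be told apart.

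The lengths of the RNAs separated the members. At MIR167A the 21-nt class held 59.3 to 92.3% of the signal (median 89.2%) and at MIR167B 73.9 to 94.7% (median 90.9%), the length of their mature miRNA. The lowest share of both genes came from WT FTL replicate 2, where 70.0 hit-weighted reads were listed at MIR167A. MIR167D was spread over 19 to 22 nt, with 11.3 to 49.0% at 21 nt in 9 libraries. The 22-nt class, the length of annotated miR167d, had 6.45 and 7.59 RPM (WT Col-0), 5.54 and 13.4 RPM (pLAT52::RTL1), 30.8 and 4.38 RPM (pMGH3::RTL1), 9.34 and 1.21 RPM (WT FTL), and 13.1 and 11.4 RPM (nrpd1a-3 FTL). These values rest on 1 to 29 reads per library. The groups overlapped in unsorted pollen, and both nrpd1a-3 FTL values were above both WT FTL values. WT FTL had 14 and 1 reads there, and nrpd1a-3 FTL had 13 and 17. The Poisson interval of WT FTL replicate 1 (5.11 to 15.7 RPM) overlapped those of both mutant libraries (6.97 to 22.4 and 6.64 to 18.2 RPM). That of WT FTL replicate 2 (0.0305 to 6.71 RPM) lay below nrpd1a-3 FTL replicate 1 and overlapped replicate 2. How many of all loci showed this order at 22 nt was not computed. MIR167D gave 3.90 to 17.6% of the family's signal in 9 libraries and 86.1% in nrpd1a-3 FTL replicate 2.

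**Figure D2:**
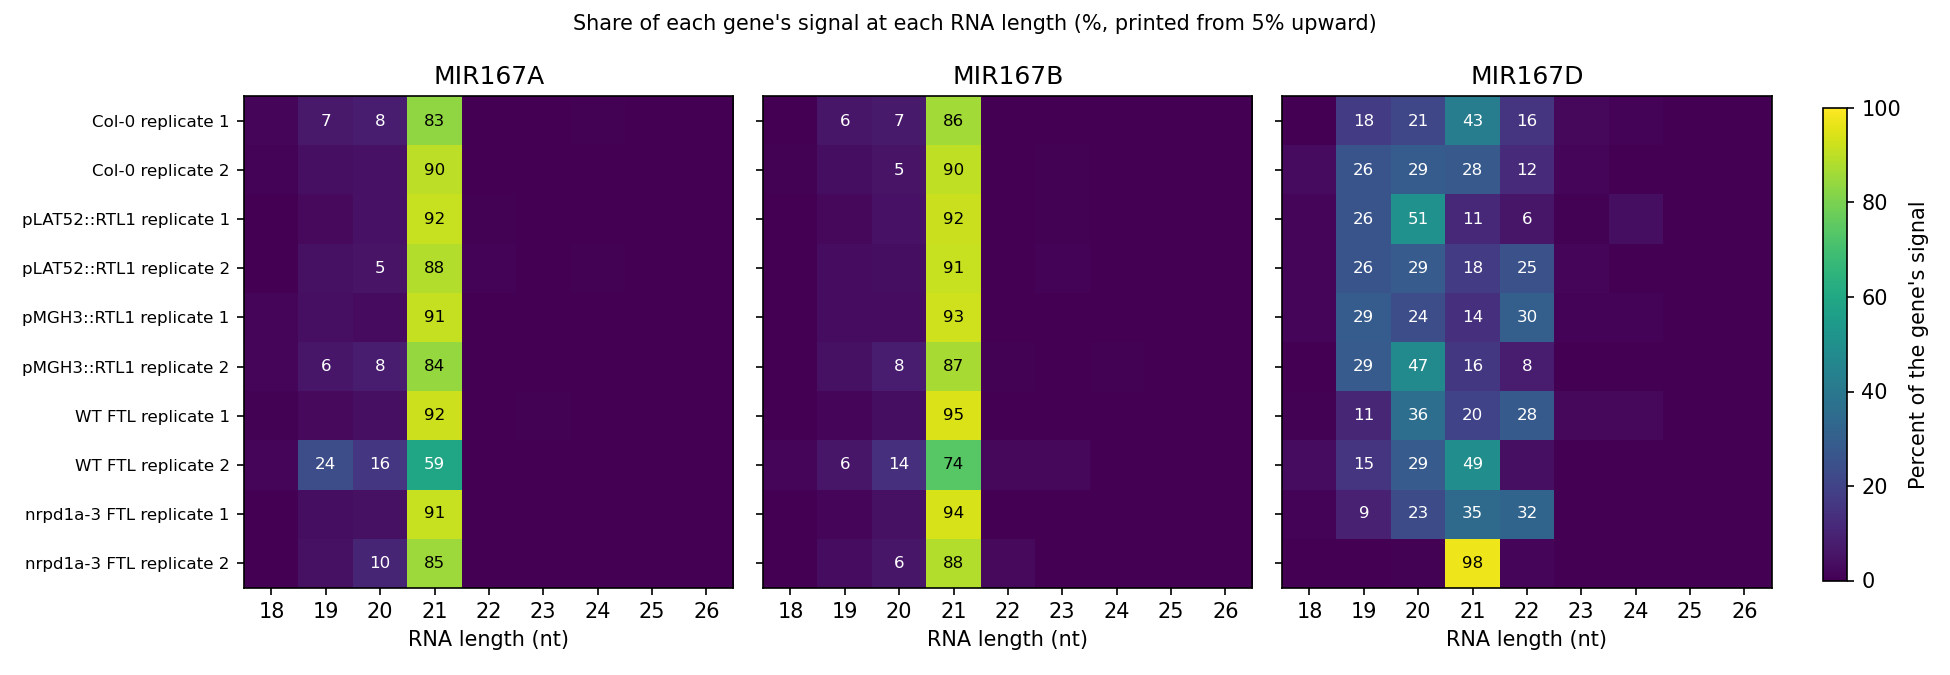
Share of each gene's signal at each RNA length (nt, horizontal axis) in the 10 libraries (rows), in percent by colour. MIR167A and MIR167B peak at 21 nt in every library, and MIR167D is spread over 19 to 22 nt except in nrpd1a-3 FTL replicate 2, where 97.6% is 21 nt long.

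The question of the RTL1 comparison is whether an enzyme that suppresses siRNAs in pollen also alters these microRNAs. Both RTL1 comparisons share the WT Col-0 libraries. Against WT Col-0 (300 ± 241 RPM, SD, n = 2), MIR167A had a mean of 795 ± 514 RPM with pLAT52::RTL1 and of 642 ± 355 RPM with pMGH3::RTL1, and the groups overlapped in both. The log2 difference at MIR167A was 1.51 (SE 0.68, 95% interval -0.06 to 3.09, limma adjusted p = 0.275) for pLAT52::RTL1 and 1.25 (-0.32 to 2.83, limma adjusted p = 0.323) for pMGH3::RTL1. MIR167B, largely the same reads, gave 1.55 (-0.07 to 3.18, limma adjusted p = 0.277) and 1.24 (-0.38 to 2.86, limma adjusted p = 0.342). All differences are on the log2(signal + 1) scale.

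MIR167D differed by 0.48 (-0.42 to 1.37, limma adjusted p = 0.542) with pLAT52::RTL1 and by 0.54 (-0.35 to 1.44, limma adjusted p = 0.451) with pMGH3::RTL1. Over 21 to 24 nt, without RNAs shared among the members, the signs turned, to -0.22 and -0.04. None of the 3 members tested passed the threshold of 0.05 in limma in either comparison, where 1.79% of the 11585 loci tested passed with pLAT52::RTL1 and 1.43% with pMGH3::RTL1. The unadjusted p was below 0.05 for 0 of 3 members in both, beside 18.9% and 22.1% of all loci, and limma-voom on hit-weighted reads called 0 of 3 in both. The median difference was 0.78 and 1.01 over the 143 microRNA genes tested, above the values of MIR167D and below those of MIR167A and MIR167B, and 0.17 and 0.08 over all loci.

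The calls at MIR167A and MIR167B turned on WT Col-0 replicate 2. Without it, limma called both genes higher with pLAT52::RTL1 (2.44 and 2.51, adjusted p = 0.0356 for each) and with pMGH3::RTL1 (2.18, adjusted p = 0.0364, and 2.20, adjusted p = 0.0390), with a single WT Col-0 library assumed to vary like the others. Leaving out that library also raised the calls over all 12160 loci then tested, to 755 higher and 24 lower with pLAT52::RTL1 and to 1340 and 223 with pMGH3::RTL1. WT Col-0 replicate 1, the only control library then left, had the lowest summed signal (3743341 RPM) and the lowest value of a read (0.430 RPM) of the 10 libraries. Scaling to the summed signal without structural RNAs also called both in pLAT52::RTL1 pollen, where 287 of 11585 loci passed as higher and 136 as lower. The prior degrees of freedom were infinite in that fit and 5.12 in the main one. The 4 sporophytic marker genes summed to 40393 and 91032 RPM (WT Col-0), 93768 and 114889 RPM (pLAT52::RTL1), and 82678 and 83931 RPM (pMGH3::RTL1). Like MIR167A, they were lowest in WT Col-0 replicate 1. Within each construct, however, they were higher in replicate 2, where MIR167A was lower. Their part in the MIR167 values was not tested. Of these 4 marker genes, limma called 0 in both comparisons, with 0 at an unadjusted p below 0.05 and 0 by limma-voom.

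Between the RTL1 constructs, the log2 difference (pMGH3::RTL1 minus pLAT52::RTL1) was -0.26 (-1.83 to 1.31, limma adjusted p = 0.856) at MIR167A, -0.32 (-1.94 to 1.31, limma adjusted p = 0.831) at MIR167B and 0.07 (-0.83 to 0.96, limma adjusted p = 0.938) at MIR167D. The groups overlapped at these 3 genes. limma called 0 of 3 members, none had an unadjusted p below 0.05 and limma-voom called 0, where 3.55% of loci passed and 23.3% had an unadjusted p below 0.05.

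**Figure D3:**
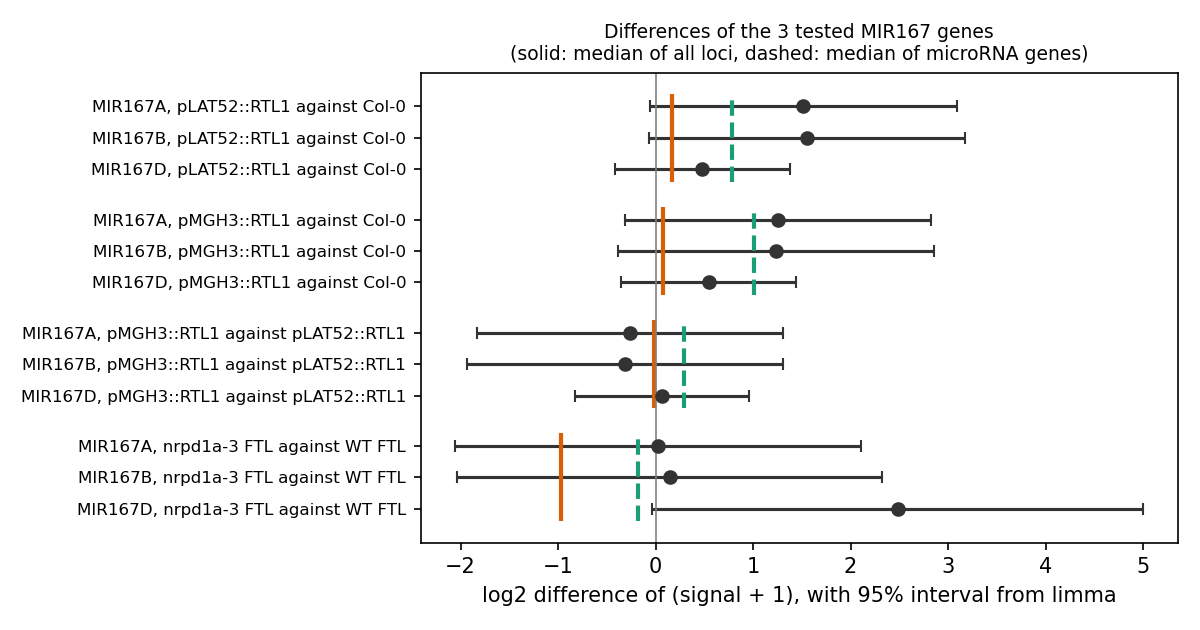
log2 difference of (signal + 1) for the 3 tested members in the 4 comparisons, with 95% intervals from limma; the solid line marks the median of all loci tested and the dashed line that of microRNA genes. All 12 intervals include 0, and the widest are in sorted pollen.

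The sorted grains, from heterozygous plants, compare the mutant with the wild-type NRPD1a allele in the grain at the same genes. The DsRed reporter is linked to the wild-type allele, so the allele and the reporter cannot be told apart. The paper describes RNA polymerase IV as the main route to siRNAs in Arabidopsis pollen. MIR167A had 199 ± 162 RPM among WT FTL and 229 ± 224 RPM among nrpd1a-3 FTL grains, a log2 difference of 0.03 (-2.06 to 2.11, limma adjusted p = 0.987). MIR167B had a difference of 0.14 (-2.04 to 2.33, limma adjusted p = 0.943). Both genes were high in replicate 1 and low in replicate 2 of each genotype. The median over all loci was -0.97 in this comparison and -0.19 over 112 microRNA genes. The summed sporophytic markers were 5448 and 20108 RPM (WT FTL), and 11879 and 20934 RPM (nrpd1a-3 FTL), higher in replicate 2, the opposite order to MIR167A. The pollen genes MIR845A and MIR845B summed to 445920 and 81646 RPM (WT FTL), and 265331 and 58474 RPM (nrpd1a-3 FTL), the same order as MIR167A. Within each unsorted group, the order of this pollen sum was opposite to that of MIR167A. The part of either set of markers was not tested.

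MIR167D stood apart in sorted pollen. Its mean was 31.3 ± 2.55 RPM for WT FTL and 411 ± 524 RPM for nrpd1a-3 FTL grains, and both mutant libraries lay above both WT FTL libraries, which held for 1 of the 3 members tested and for 17.1% of all loci tested. The log2 difference was 2.48 (SE 1.13, -0.04 to 5.0, limma adjusted p = 0.121). Across the alternatives that left out no library of this comparison, its adjusted p ran from 1.61e-06 to 0.648. limma thus called 0 of 3 members, none at an unadjusted p below 0.05, and limma-voom also called 0, with 1 at an unadjusted p below 0.05, where 21.7% of loci passed in either direction, 0.0682% as higher, and 43.2% had an unadjusted p below 0.05. The result rests on nrpd1a-3 FTL replicate 2. Without that library the difference was 0.37, and without nrpd1a-3 FTL replicate 1 it was 4.60, each from a single mutant library. By the study's methods both kinds of grain were collected in the same sort, but no label says that a replicate number marks a sort. With that number as a block, MIR167D passed (limma adjusted p = 1.61e-06), as did 684 loci as higher and 3532 as lower of 7334. That fit had 1 residual degree of freedom and infinite prior degrees of freedom.

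Nearly all of the excess was of a single length. MIR167D had 763 RPM at 21 nt in nrpd1a-3 FTL replicate 2, from 1138 reads (95% Poisson interval 719 to 808 RPM, counting error only). The other 9 libraries had 17.6 and 17.3 RPM (WT Col-0), 10.6 and 9.54 RPM (pLAT52::RTL1), 13.8 and 8.76 RPM (pMGH3::RTL1), 6.67 and 14.5 RPM (WT FTL) and 14.1 RPM (nrpd1a-3 FTL replicate 1). At 22 nt the same library had 11.4 RPM from 17 reads, inside the range of the others, and at 19 to 20 nt 7.15 RPM, below the other 9. MIR167A and MIR167B were not raised there, at 60.3 and 48.9 RPM of 21-nt RNA.

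The library with this excess had the largest share of structural RNAs, 76.7%, whose part in it was not tested. The files give a length and no sequence for these reads, so which 21-nt RNA of the 377 bp gene it is, and whether it is the first 21 bases of miR167d, was not tested.

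**Figure D4:**
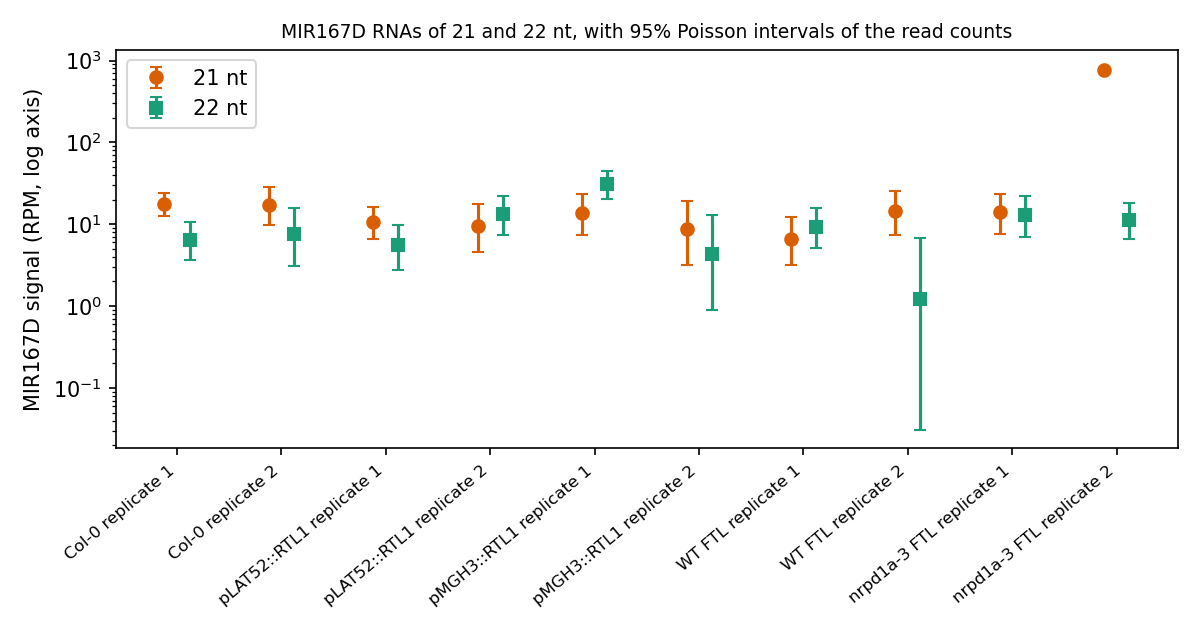
MIR167D RNAs of 21 nt (circles) and 22 nt (squares) in each library, in RPM on a log axis with 95% Poisson intervals of the read counts. The 21-nt class lies between 6.67 and 17.6 RPM in 9 libraries and at 763 RPM in nrpd1a-3 FTL replicate 2, where the 22-nt class is at 11.4 RPM.

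WT FTL grains can be set beside unsorted WT Col-0 pollen as values only, since sorting and group cannot be told apart. MIR167A ranged from 84.4 to 314 RPM in WT FTL and from 129 to 471 RPM in WT Col-0, and MIR167D from 29.5 to 33.1 RPM and from 41.4 to 62.1 RPM. The share of structural RNAs was 54.8 and 67.2% in WT FTL against 31.2 and 43.8% in WT Col-0 libraries.

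The target sites show which part of the mRNA the miRNA would pair with, and small RNAs on these genes were counted in the same libraries. The sites below are the best ungapped matches to miR167a-5p in RefSeq transcripts, with Watson-Crick paired bases in capitals.
ARF6: gAGAUCAgGCUGGCAGCUUgu
ARF8: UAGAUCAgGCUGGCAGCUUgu
IAR3: gAuccgAUaCUGGCAGCUUCA
The ARF6 site (AT1G30330, chr1:10686478-10686498, minus strand) is in coding exon 14 of 15 with 17 of 21 bases paired. The ARF8 site (AT5G37020, chr5:14633841-14633861, plus strand) is in coding exon 13 of 14 with 18 paired bases. The IAR3 site (AT1G51760, chr1:19200652-19200672, plus strand) is in coding exon 3 of 5 with 15 paired bases, 7 of 7 in the seed, where both ARF sites pair 6 of 7.

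Small RNAs on ARF6 had 14.6 and 29.3 RPM (WT Col-0), 33.3 and 54.4 RPM (pLAT52::RTL1), and 30.8 and 26.3 RPM (pMGH3::RTL1). Both pLAT52::RTL1 libraries lay above both WT Col-0 libraries, as for 32.1% of all loci tested. The log2 difference was 1.00 (SE 0.38, 0.12 to 1.88, limma adjusted p = 0.218, unadjusted p = 0.0306), and in pMGH3::RTL1 it was 0.44 (limma adjusted p = 0.543), turning to -0.26 when scaled to the summed signal. ARF8 had 8.17 and 19.5 RPM (WT Col-0), 12.6 and 21.9 RPM (pLAT52::RTL1), and 17.0 and 8.76 RPM (pMGH3::RTL1), and the groups overlapped. IAR3 had 1.06 to 4.29 RPM in these 6 libraries and was below the filter, as were all 3 targets in sorted pollen. These are small RNAs that map to the target genes. The level of the target mRNA was not analysed here.

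Other small RNA genes of the auxin response gave the only calls among the auxin genes examined. The microRNA and TAS list (miR160, which targets ARF10, ARF16 and ARF17, miR164, miR390, miR393, which targets auxin receptors, and the TAS3 genes) had 10 of 13 genes tested. In pMGH3::RTL1 pollen 2 of 10 passed as higher, where 0.475% of all loci did, and none passed as lower (0.958% of all loci). Of the 143 microRNA genes tested, 10.5% passed as higher and 0.699% as lower. The 2 genes of the list that passed were TAS3 and TAS3B, whose transcripts are cut by miR390 and give rise to siRNAs against ARF2, ARF3 and ARF4. TAS3 (AT3G17185) had 236 and 264 RPM in WT Col-0 and 688 and 604 RPM in pMGH3::RTL1 pollen, a log2 difference of 1.36 (SE 0.24, limma adjusted p = 0.0368). TAS3B (AT5G49615) had 28.0 and 14.2 RPM against 80.1 and 67.9 RPM, a difference of 1.83 (SE 0.33, limma adjusted p = 0.0440). The groups did not overlap at either gene, as for 29.3% of all loci tested that were higher in both libraries. Across the alternatives the adjusted p ran from 0.00732 to 0.719 at TAS3 and from 0.00696 to 0.586 at TAS3B. Both calls were lost without either pMGH3::RTL1 library (0.163 and 0.150 at TAS3, 0.170 and 0.153 at TAS3B) or either pLAT52::RTL1 library (0.103 and 0.0965, 0.132 and 0.137), and under scaling to the summed signal (0.374 at TAS3, 0.144 at TAS3B), while the sign stayed positive in all 21 alternatives run.

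In pLAT52::RTL1 pollen limma called 0 of the 10 genes, with 3 at an unadjusted p below 0.05 and 0 by limma-voom. There TAS3 had 373 and 494 RPM and TAS3B 40.3 and 35.8 RPM, with differences from WT Col-0 of 0.78 (limma adjusted p = 0.146) and 0.89 (limma adjusted p = 0.207). Between the constructs limma called 0 of 10, with 4 at an unadjusted p below 0.05 and 0 by limma-voom, so a difference between the constructs at the TAS3 genes was not shown. In sorted pollen limma called 0 of 8, with 0 at an unadjusted p below 0.05 and 0 by limma-voom. The median difference of the list was 0.63 (pLAT52::RTL1), 1.15 (pMGH3::RTL1) and 0.06 (nrpd1a-3 FTL), beside 0.78, 1.01 and -0.19 over microRNA genes and 0.17, 0.08 and -0.97 over all loci.

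Of 14 genes for other ARF transcription factors and the TIR1 and AFB receptors, 9 were tested in unsorted and 3 in sorted pollen. limma called 0 in each comparison, and limma-voom also called 0. At an unadjusted p below 0.05 there were 0 in pLAT52::RTL1, 2 in pMGH3::RTL1, 1 between the constructs and 0 in sorted pollen. The median difference was 0.28 with pLAT52::RTL1 and 0.45 with pMGH3::RTL1.

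Among 130 microRNA genes outside the family, the 3 whose log2 signal followed the summed MIR167 signal most closely over the 10 libraries were MIR169m (Pearson r 0.758), MIR858a (0.725) and MIR396b (0.722). The median over the 130 genes was 0.491, and no gene exceeded 0.9. The points share the scaling of each library, so these values are a description. They include nrpd1a-3 FTL replicate 2, where MIR167D gave 86.1% of the summed signal, and r without that library was not computed. MIR396b, for example, had 375 and 356 RPM in WT Col-0 and 1088 and 1227 RPM in pMGH3::RTL1 pollen, without the wide gap between replicates seen at MIR167A.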

How the data were processed

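Small RNAs of 10 pollen libraries were analysed from processed values. By the study's methods, the authors kept single-end reads of 18 to 30 nt, mapped them to TAIR10 with Bowtie (version not used here), kept perfect matches, divided each read by its genomic hits and scaled by a read total. The deposited values are given per gene and RNA length, and are called signal because each library sums to between 3743341 and 8672909. Of the values, 68.4 to 73.2% were whole multiples of the value of a read. Lengths above 30 nt, listed in replicate 1 of both sorted groups, were left out.

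Signal was summed over 18 to 30 nt, and loci averaging 12 or more hit-weighted reads per library were tested on log2(signal + 1) by limma (version 3.58.1, run in R version 4.3.3), with a variance trend and Benjamini-Hochberg adjustment over all loci. The 11585 loci of unsorted pollen were fitted in 6 libraries (3 residual degrees of freedom and 5.12 from the prior), and the 7334 loci of sorted pollen in 4 (2 and 7.72). Same-numbered sorted libraries had a correlation of deviations of 0.468, beside 0.284 (WT FTL) and 0.254 (nrpd1a-3 FTL) with unsorted WT Col-0. Their numbers may mark shared sorts, which no label states, so the fit without the block was kept beside the blocked one. With 2 libraries a group, an exact permutation test cannot go below 0.333. The procedure was tested on simulated data. Poisson intervals are 95% and cover counting error only.

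Sequences and positions are from RefSeq on TAIR10.1, matched by locus ID, while the files use TAIR10. Python 3.11.15 was used with pandas 2.3.3, SciPy 1.17.1, numpy 2.4.6 and matplotlib 3.10.9. The members and lists were chosen with earlier results of these data known. Named genes are the 4 members, ARF6, ARF8, IAR3, auxin genes past the threshold and the 3 microRNA genes most like the family. MIR167D in nrpd1a-3 FTL replicate 2 was looked at by length after its value was seen. Alternatives tried were 4 scalings, no filter, pseudocounts of 0.1 and 5, no variance trend, a replicate block, RNA lengths, limma-voom, other sets of libraries and each library left out.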

Additional observations from a re-analysis of the deposited data

How the results depend on the processing

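The count of members past the threshold, 0 in each comparison, ran from 0 to 2 in pLAT52::RTL1 and in pMGH3::RTL1 against WT Col-0, from 0 to 0 between the constructs, and from 0 to 1 in sorted pollen when a library was left out. It was 2 in pLAT52::RTL1 when scaled to the summed signal without structural RNAs, where 287 of 11585 loci passed as higher and 136 as lower. With 2 libraries a group, limits are wide, MIR167C is at the limit of detection, and depth cannot separate MIR167A from MIR167B. The causes of these changes were not tested.

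The replicate number as a block raised the count in sorted pollen to 1 (MIR167D, limma adjusted p = 1.61e-06). That fit had 1 residual degree of freedom and infinite prior degrees of freedom, and 684 of 7334 loci passed as higher and 3532 as lower. The block changed no other call of a member, while the TAS3 call in pMGH3::RTL1 pollen was lost (limma adjusted p = 0.0514). Deviations of same-numbered libraries had a correlation of 0.468 between the sorted groups, in only 2 pairs. It was 0.00687 to 0.0898 among unsorted groups, where the numbers were not taken as pairs. Unsorted WT Col-0, which cannot share a sort, had 0.284 with WT FTL and 0.254 with nrpd1a-3 FTL. The RTL1 constructs had -0.0112 to 0.0343 with the sorted groups.

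Scaling to the summed signal, to microRNA genes without MIR167 and MIR845A, or to the signal without structural RNAs turned the sign of some values that had not passed the threshold. In that order MIR167D gave -0.17, -0.21 and -0.034 in pMGH3::RTL1 against WT Col-0 and -0.43, -0.34 and -0.25 between the constructs, and ARF6 gave -0.26, -0.29 and -0.12 in pMGH3::RTL1. In sorted pollen the first gave -0.49 at MIR167A and -0.37 at MIR167B, and the second -0.011 at MIR167A. The median of all loci moved by -0.21, -0.34 and -0.26 in pLAT52::RTL1 and by -0.70, -0.73 and -0.57 in pMGH3::RTL1 pollen under these scalings. Scaled to the median ratio, it moved by 1.14 in sorted pollen.

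At 21 nt alone MIR167D gave -0.74 in pLAT52::RTL1 and -0.62 in pMGH3::RTL1, and over 21 to 24 nt, an alternative chosen after seeing the data, -0.22 and -0.040. Its share of the family's signal fell from 4.95% to 0.867% at 21 nt and 1.96% over 21 to 24 nt in pLAT52::RTL1, and from 6.14% to 4.62% over 20 to 22 nt, 1.10% at 21 nt and 2.41% over 21 to 24 nt in pMGH3::RTL1 pollen. The summed family signal moved by less than the spread between replicates in the 24 values recomputed under other scalings and lengths. The 16 values with a library left out cannot move by more than that spread with 2 libraries a group, so they are no check. limma-voom gave 0.32 at ARF8 in pMGH3::RTL1.

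With a library left out, differences ranged, where the sign turned, from -0.22 to 0.94 at ARF8 in pLAT52::RTL1, from -0.039 to 0.91 at ARF6 and from -0.63 to 0.53 at ARF8 in pMGH3::RTL1. Between the constructs they ranged from -0.97 to 0.45 at MIR167A, from -1.05 to 0.42 at MIR167B, from -0.38 to 0.51 at MIR167D and from -0.85 to 0.026 at ARF8. In sorted pollen they ranged from -1.19 to 1.24 at MIR167A and from -1.09 to 1.38 at MIR167B.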
